A study of Mus musculus with 4 samples.

Results

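The genes of the platelet-derived growth factor (PDGF) system were followed in aortic smooth muscle cells from mice labelled as smooth muscle knockouts of YAP and TAZ and from wild-type mice. They are the 4 ligand genes Pdgfa, Pdgfb, Pdgfc and Pdgfd and the 2 receptor genes Pdgfra and Pdgfrb, chosen by name from the 39179 genes of the deposited table. All 6 were found once each, and all 6 passed the filter on low values. The knockout (KO) libraries came from Sm-Yap/Taz-KO mice, a name that stands for Yap1 and Wwtr1, which encode the transcriptional co-activators YAP and TAZ. The wild-type (WT) libraries came from mice labelled WT. Both groups were taken 18 days after tamoxifen injection, and each had 2 libraries of total RNA from isolated primary aortic smooth muscle cells. No label names the animals' age or strain, the promoter that drove the deletion or any pooling of animals. Nor do the labels tie the libraries of a group to separate animals, so the tests below weigh only the spread between these libraries, part or all of which may be technical.

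PDGFs are dimers that bind and pair receptor tyrosine kinases on mesenchymal cells and drive their division, migration and survival. PDGF-A and PDGF-C chains act mainly through the α receptor, PDGF-D mainly through the β receptor, and PDGF-B binds both. In the vessel wall, PDGF-B from the endothelium recruits and expands mural cells, which carry PDGFRβ, while PDGFRα marks fibroblasts, those of the adventitia among them. PDGF-C and PDGF-D are secreted as latent forms that proteases must cut before they can bind.

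The values are the authors' normalized read counts per gene. They summed to 13861333 and 13279332 in the KO and to 14235444 and 14519178 in the WT libraries, and the depth behind them was estimated at 11810000 to 16810000 reads on genes. As a check of the labels, Yap1 had 947 and 962 normalized read counts in the KO libraries and 1966 and 1877 in the WT libraries (log2 fold change -1.01, SE 0.10, limma adjusted p = 0.00802). Wwtr1 had 2848 and 2466 in the KO and 3423 and 4016 in the WT libraries (log2 fold change -0.48, SE 0.13, limma adjusted p = 0.0553), which did not pass. Transcripts of both genes thus remained abundant in the KO libraries, 50.3% lower for Yap1 and 28.6% lower for Wwtr1 in mean count. The smooth muscle markers Acta2 (41201 and 33544 in KO, 157904 and 150117 in WT) and Myh11 (64964 and 49813 in KO, 168117 and 164384 in WT) were abundant in every library, so the defining markers of the labelled cell type were present. Markers of macrophages, endothelium, fibroblasts and adipocytes were present too, and their sums are given beside the PDGF genes further on. Of 15058 genes tested, 1443 were called higher and 1009 lower in KO. Without KO replicate 1, KO replicate 2 or WT replicate 1, limma called 0 genes (3792, 3228 and 2671 at an unadjusted p under 0.05), and without WT replicate 2 it called 587 higher and 153 lower.

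Promoter sequence was matched by symbol in RefSeq (build GRCm38.p6) for 4 of the 6 genes, namely Pdgfa, Pdgfc, Pdgfd and Pdgfra. YAP and TAZ act on DNA through TEAD factors, and smooth muscle genes are controlled by serum response factor through the CArG box, so these 2 motifs were looked for on both strands. The 250 bases before the annotated start are shown for Pdgfd and Pdgfra, which had the largest differences between KO and WT in opposite directions, and for Pdgfc, the gene that held both motifs. Capitals mark the TEAD motif GGAATG or the CArG box, and all other bases are in lower case.
Pdgfd, chr9:6168236-6168485, plus strand: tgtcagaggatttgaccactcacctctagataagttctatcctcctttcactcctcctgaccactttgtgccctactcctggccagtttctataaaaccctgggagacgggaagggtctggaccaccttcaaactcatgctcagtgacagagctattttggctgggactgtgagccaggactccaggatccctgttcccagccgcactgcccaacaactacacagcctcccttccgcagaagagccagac
Pdgfra, chr5:75152001-75152250, plus strand: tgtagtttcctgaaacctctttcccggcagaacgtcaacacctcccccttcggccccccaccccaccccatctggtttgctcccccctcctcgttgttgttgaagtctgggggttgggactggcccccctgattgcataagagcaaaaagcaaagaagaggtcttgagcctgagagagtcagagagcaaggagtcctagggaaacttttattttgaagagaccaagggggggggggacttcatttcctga
Pdgfc, chr3:81036166-81036415, plus strand: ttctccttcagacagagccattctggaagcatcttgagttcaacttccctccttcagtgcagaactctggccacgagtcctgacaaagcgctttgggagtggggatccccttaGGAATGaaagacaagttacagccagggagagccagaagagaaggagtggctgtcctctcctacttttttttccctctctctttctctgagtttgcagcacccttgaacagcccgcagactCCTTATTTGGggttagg
In Pdgfc the TEAD motif starts 137 bases and the CArG box 17 bases before the start site, and they do not overlap. A further TEAD motif lies on the opposite strand from base 39 after the start, in a part that is not shown. Among 32544 promoters, 12.6% hold a TEAD motif and 1.48% a CArG box in these 250 bases. Neither motif is in the Pdgfd, Pdgfra and Pdgfa windows. Of the other motifs searched, the Sp1 motif GGGCGG was found in both Pdgfa windows, and in 33% of all promoters over the same length, while the Egr motif GCGTGGG (4.34% of all promoters) was in none of the windows of these genes. A match is a run of letters and does not show that a factor binds.

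The question put to the PDGF genes was whether their transcripts differed between the libraries labelled KO and WT. Pdgfd fell in KO and Pdgfb rose, and the other 4 genes did not pass the test. In all 6 genes both KO libraries lay on one side of both WT libraries, 3 above and 3 below. Across all tested genes limma called 16.3% in either direction (9.58% higher, 6.7% lower), and the groups did not overlap for 62.8% (30.7% higher, 32.1% lower), so the absence of overlap is common in these libraries.

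Pdgfd encodes PDGF-D, a ligand of the β receptor, and was the most abundant of the ligand transcripts. The gene spans chromosome 9, bases 6168584 to 6378850, on the plus strand (GRCm38). Its normalized read counts were 2148 and 2137 in KO and 4100 and 4479 in WT. The KO libraries nearly coincided and both stood far below the WT libraries. The gap between the KO libraries, 0.01 on the log2 scale, was unusually small, wider than that of only 3.43% of genes of similar level. Pdgfd averaged 2142 ± 7.78 in KO and 4290 ± 268 in WT (SD, n = 2 each), 50.1% lower in KO. The log2 fold change was -1.00 (SE 0.10, 95% interval -1.25 to -0.75, limma adjusted p = 0.00802), and Pdgfd ranked 114 by p among the 15058 genes. The size varied little when any 1 library was left out, but the call did not hold each time: the adjusted p was 0.156 without KO replicate 1, 0.209 without KO replicate 2, 0.132 without WT replicate 1 and 0.0487 without WT replicate 2. It was 0.0815 with no filter on low values and 0.0745 with no intensity trend, settings in which limma called 0 genes of any kind (5472 and 4274 at an unadjusted p under 0.05).

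Pdgfb encodes the B chain, the ligand that binds both receptors, and was the least abundant member. It lies on chromosome 15, bases 79995874 to 80014977, on the minus strand. Pdgfb had 185 and 244 normalized read counts in KO and 124 and 105 in WT, which stand for an estimated 164 and 217 reads in KO and 136 and 122 in WT. Both KO libraries exceeded both WT libraries, and the KO libraries differed from each other 1.32-fold. The mean was 214.5 ± 41.7 in KO and 114.5 ± 13.4 in WT (SD, n = 2 each), a 1.87-fold difference (log2 fold change 0.89, SE 0.23, 95% interval 0.33 to 1.45, limma adjusted p = 0.0494). This call lay at the threshold. It was lost after quantile normalization (adjusted p = 0.0715), with no intensity trend (0.107), with no filter (0.133), and without KO replicate 1 (0.165), KO replicate 2 (0.245), WT replicate 1 (0.224) or WT replicate 2 (0.215).

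Pdgfc encodes PDGF-C, a latent ligand of the α receptor, and lies on chromosome 3, bases 81036416 to 81214040, on the plus strand. Its normalized read counts were 714 and 805 in KO and 574 and 491 in WT, without overlap. The 1.43-fold difference missed the threshold (log2 fold change 0.51, SE 0.14, 95% interval 0.17 to 0.86, limma adjusted p = 0.0586). Rescaling all libraries to the same total put it just past (log2 fold change 0.60, adjusted p = 0.0442).

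Pdgfa encodes the A chain, a ligand of the α receptor, on chromosome 5, bases 138976014 to 138997370, minus strand. It had 504 and 705 normalized read counts in KO and 729 and 715 in WT. KO replicate 2 came close to the WT libraries, and the low value was that of KO replicate 1 alone. The log2 fold change was -0.28 (SE 0.18, 95% interval -0.72 to 0.17, limma adjusted p = 0.346). It was -0.03 without KO replicate 1 and -0.52 without KO replicate 2. The gap between the KO libraries, 0.48 on the log2 scale, was wider than that of 91.7% of genes of similar level (within 2-fold of the mean). The antisense gene 6330403L08Rik overlaps 26.1% of the exon length of Pdgfa, and the strand setting of the counting is not given, so reads of the 2 genes may not be separated. That gene had 293 and 348 counts in KO and 696 and 595 in WT (log2 fold change -1.01, SE 0.16, limma adjusted p = 0.015).

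**Figure D1:**
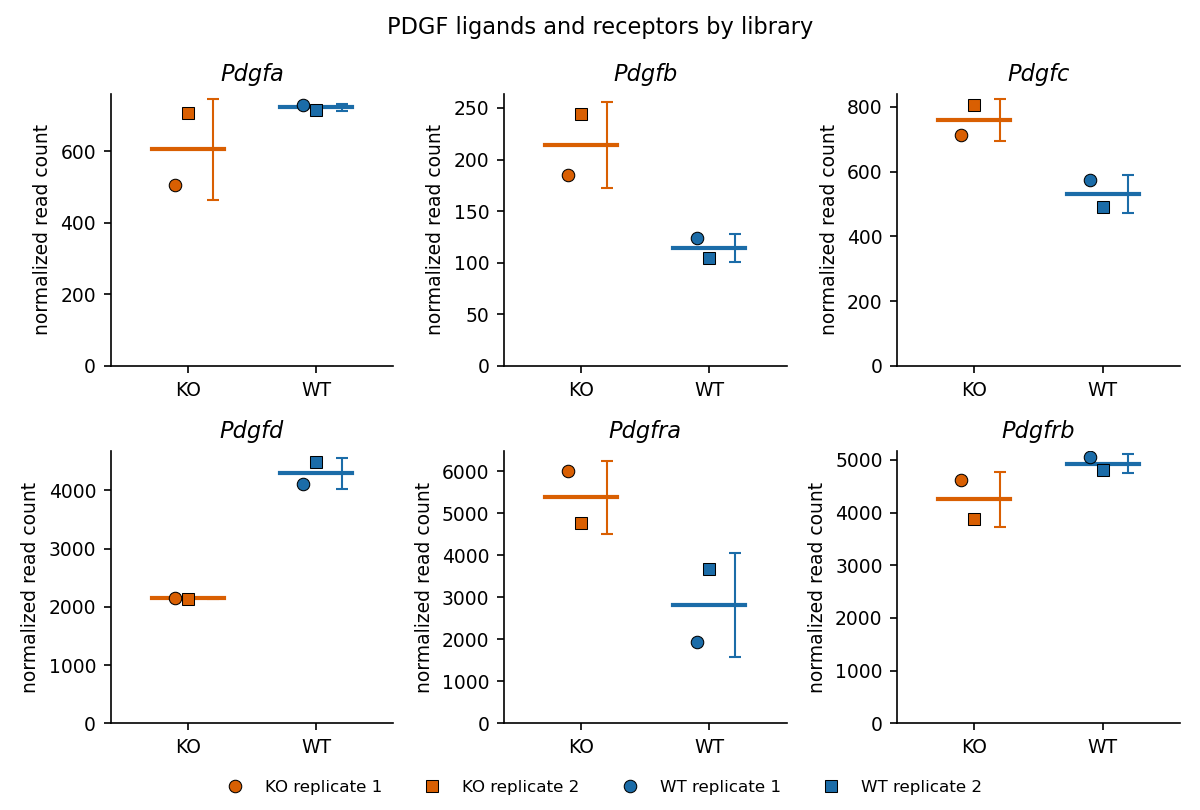
Normalized read counts of the 6 PDGF genes in each library, KO left of WT, with circles for replicate 1 and squares for replicate 2. Horizontal lines are group means and the bars beside them are ± 1 SD (n = 2 each). Pdgfd shows the clearest separation (2148 and 2137 in KO, 4100 and 4479 in WT) and Pdgfra the widest gap between WT libraries (1944 and 3681).

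The receptor genes went apart in their values, and neither passed the test. Pdgfra encodes PDGFRα and lies on chromosome 5, bases 75152292 to 75198215, on the plus strand. It had 5992 and 4759 normalized read counts in KO and 1944 and 3681 in WT. Both KO libraries exceeded both WT libraries, yet the WT libraries themselves differed 1.89-fold, a wider gap than that of 96.6% of genes of similar level in WT. The mean of 5376 ± 872 in KO was 1.91-fold that of 2812 ± 1228 in WT (SD, n = 2 each). The log2 fold change was 1.00, equal in size to that of Pdgfd, but with a larger error (SE 0.30, 95% interval 0.27 to 1.73, limma adjusted p = 0.0731). WT replicate 1 carried much of it: the log2 fold change was 0.54 (adjusted p = 0.29) without WT replicate 1 and 1.46 (adjusted p = 0.0488) without WT replicate 2. It passed after rescaling to the same total (1.08, adjusted p = 0.0452) and after quantile normalization (1.10, adjusted p = 0.0347).

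Pdgfrb encodes PDGFRβ, the receptor of mural cells, and lies on chromosome 18, bases 61045150 to 61085061, on the plus strand. Its normalized read counts were 4621 and 3878 in KO and 5052 and 4802 in WT. The KO libraries were the lower ones, by 13.8% on average. The log2 fold change was -0.22 (SE 0.12, limma adjusted p = 0.27), and its 95% interval of -0.51 to 0.08 leaves room for a modest fall as well as for no change. Quantile normalization brought the difference to -0.07 and equal totals to -0.13.

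**Figure D2:**
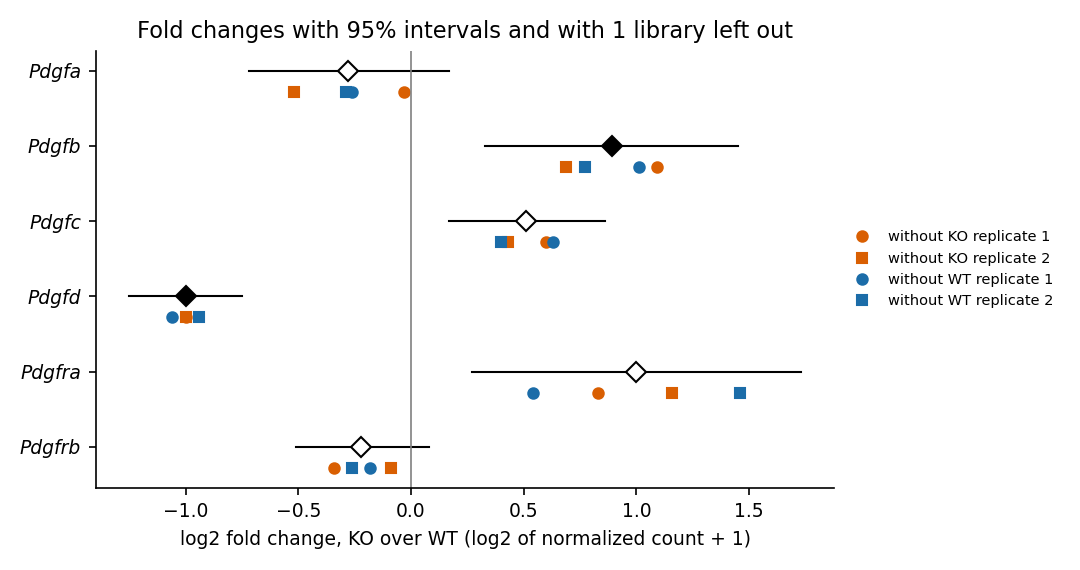
Log2 fold change of each PDGF gene, KO over WT, with limma's 95% interval (diamonds, filled where the adjusted p was under 0.05) and, below each, the value with 1 library left out. The 4 values of Pdgfd lie between -1.06 and -0.94, whereas those of Pdgfra run from 0.54 to 1.46.

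Levels of different genes were compared as normalized read counts per kb of exon, using the union of all exons that GENCODE M21 annotates for a gene (3119 bases for Pdgfa, 10024 for Pdgfra). In KO the order of mean levels was Pdgfrb (776 per kb), Pdgfd (679), Pdgfra (536), Pdgfa (194), Pdgfc (149) and Pdgfb (51.6). In WT it was Pdgfd (1360 per kb), Pdgfrb (899), Pdgfra (281), Pdgfa (231), Pdgfc (105) and Pdgfb (27.5). On this scale the ligand and receptor of the β arm headed the order in both groups, and they changed places between them. The order depends on the lengths used, and a union longer than the transcripts present understates a level. In KO, Pdgfra had a higher mean count than Pdgfrb (5376 against 4250) but was divided by 10024 bases against 5478. The sizes of the shares and ratios between genes given below carry the same limit. Among neighbours in the order, only Pdgfra and Pdgfa in WT overlapped between libraries (194 and 367 per kb for Pdgfra, 234 and 229 for Pdgfa). Pdgfrb stood above 96.7% of the tested genes in KO and above 97.1% in WT, and Pdgfb above 46.2% in KO and 32.5% in WT.

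The make-up of the ligand transcripts differed between the groups. Pdgfd supplied 66.3% and 60.5% of the summed ligand level per kb in KO, against 77.5% and 80.2% in WT. Pdgfc supplied 13.7% and 14.1% in KO and 6.73% and 5.45% in WT. The share of Pdgfb was 4.33% and 5.23% in KO and 1.78% and 1.42% in WT, and that of Pdgfa 15.7% and 20.2% in KO and 13.9% and 12.9% in WT. None of these shares overlapped between the groups, but they were not tested, and 62.8% of all tested genes did not overlap either. They are parts of a single sum and are not separate results. A lower share of Pdgfd means a higher combined share of the other ligands. The share of Pdgfa was thus higher in KO although its count was lower (504 and 705 in KO, 729 and 715 in WT). The summed ligand level was 1027 and 1120 per kb in KO and 1676 and 1771 in WT. Of the summed receptor level, Pdgfra made up 41.5% and 40.1% in KO, against 17.4% and 29.5% in WT.

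**Figure D3:**
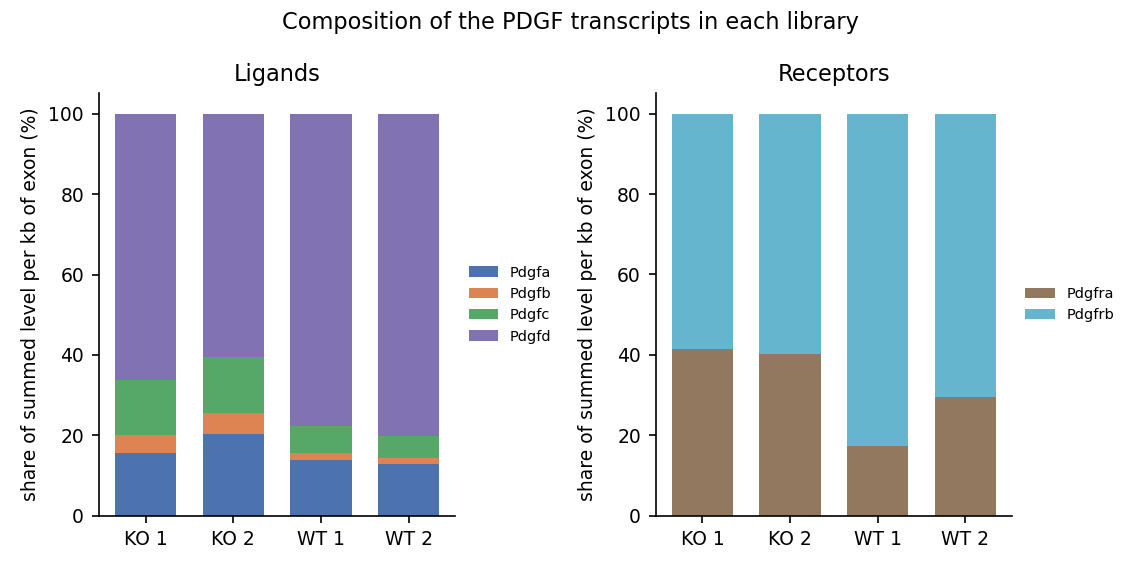
Share of each gene in the summed level per kb of exon of the 4 ligands (left) and of the 2 receptors (right), in each library. Pdgfd holds 60.5% to 66.3% of the ligand level in KO and 77.5% to 80.2% in WT, and Pdgfra 40.1% to 41.5% of the receptor level in KO and 17.4% to 29.5% in WT.

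Ratios within a library do not depend on how the libraries were scaled to each other. The level of Pdgfra was 0.709 and 0.671 times that of Pdgfrb in KO, and 0.21 and 0.419 times in WT, a difference of 1.22 in mean log2 ratio. Without WT replicate 1 this difference was 0.72. Pdgfa exceeded Pdgfb 3.62-fold and 3.84-fold in KO, and 7.79-fold and 9.01-fold in WT. Pdgfc stood at 0.206 and 0.234 times the level of Pdgfd in KO, and at 0.0869 and 0.0681 times in WT. Pdgfrb was at 0.82 and 0.631 times the summed ligands in KO and at 0.55 and 0.495 times in WT. The groups did not overlap in any of these 4 ratios, and an exact two-sided permutation test gave p = 0.33 for each, the smallest value that 2 libraries against 2 allow.

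Markers of several cell types moved with the groups, and the part they play in the PDGF values was not tested. Counts of markers are to be read against all 15058 tested genes, of which 9.58% were called higher and 6.7% lower. At an unadjusted p under 0.05 by limma, 2699 of them were higher and 2199 lower. In these bulk samples, fewer cells of a type and less RNA per cell cannot be told apart. Pdgfra stands beside the adventitial fibroblast markers, of which 3 of 12 tested (Lum, Ly6a and Col14a1) were called higher (median log2 fold change 1.22) and 9 of 12 were higher at an unadjusted p under 0.05. Their summed normalized read counts were 106050 and 78890 in KO and 40245 and 67898 in WT. The fibroblast sum and Pdgfra ranked the 4 libraries in the same order. That order is not particular to fibroblasts, because the endothelial, adipocyte and Schwann cell sums given below share it. The most abundant of the fibroblast markers was Gsn, at 34674 and 17397 in KO and 19903 and 28197 in WT. Gsn did not follow the list (log2 fold change 0.05, limma adjusted p = 0.884) and held a large part of the sum. Per 1000 counts of the fibroblast sum, Pdgfra had 56.5 and 60.3 in KO and 48.3 and 54.2 in WT. The direction of this ratio depends on Gsn, because Pdgfra is lower in KO when Gsn is left out of the sum. This kind of ratio was chosen after the values were seen. Pdgfc had 6.73 and 10.2 per 1000 fibroblast counts in KO and 14.3 and 7.23 in WT, which overlap.

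Pdgfb, known from endothelium, stands beside endothelial markers, 5 of 10 of which were called higher (median log2 fold change 1.34). Their sum was 11688 and 9867 in KO and 3600 and 6028 in WT, with Pecam1 the most abundant (3635 and 3315 in KO, 1627 and 1907 in WT). Per 1000 endothelial counts, Pdgfb had 15.8 and 24.7 in KO and 34.4 and 17.4 in WT, which overlap. Macrophage markers were higher for 11 of 11 (median 2.87), with a sum of 13422 and 17514 in KO and 1276 and 3557 in WT and with Mrc1 the most abundant. Per 1000 macrophage counts, Pdgfb had 13.8 and 13.9 in KO and 97.2 and 29.5 in WT, lower in KO and without overlap, whereas the count of Pdgfb itself was higher in KO. Platelet and megakaryocyte markers were scarce: 4 of 8 passed the filter, 1 of these (Pf4) was higher, and the sum was 204 and 293 in KO and 140 and 218 in WT. Of the others tested, Gp1ba had 24 and 27 in KO and 56 and 78 in WT (log2 fold change -1.34, limma adjusted p = 0.055), and Gp1bb (0.58) and Itga2b (0.09) did not pass either.

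Pdgfd and Pdgfrb stand beside the smooth muscle markers, 8 of 9 of which fell (median log2 fold change -1.00), with a sum of 156109 and 121604 in KO and 430193 and 404053 in WT. Per 1000 counts of that sum, Pdgfd had 13.8 and 17.6 in KO and 9.53 and 11.1 in WT, and Pdgfrb 29.6 and 31.9 in KO and 11.7 and 11.9 in WT. For Pdgfa the ratio was 3.23 and 5.8 in KO and 1.69 and 1.77 in WT. These ratios rest mostly on Acta2 and Myh11, which made up most of the sum and fell most in the list (log2 fold change -2.05 and -1.55). The log2 fold change of Pdgfd, -1.00, equalled the list median. Of the pericyte markers 2 of 7 tested fell (Notch3 and Mcam), with Rgs5 the most abundant and a sum of 62319 and 54281 in KO and 69535 and 70265 in WT. The pericyte list had no common direction: at an unadjusted p under 0.05, 1 gene was higher (Kcnj8, log2 fold change 0.59) and 3 were lower. Its sum was mostly Rgs5, Abcc9, Cspg4 and Mcam. Pdgfrb kept a near-constant ratio to this mixed sum, at 74.2 and 71.4 per 1000 counts in KO and 72.7 and 68.3 in WT. Adipocyte markers were higher for 5 of 7 (median 2.32, led in level by Cfd), with a sum of 11390 and 10595 in KO and 1323 and 3963 in WT. For the Schwann cell markers 1 of 6 was higher (median 1.46), with a sum of 832 and 802 in KO and 260 and 540 in WT. No marker of any list was at 0 in all 4 libraries.

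**Figure D4:**
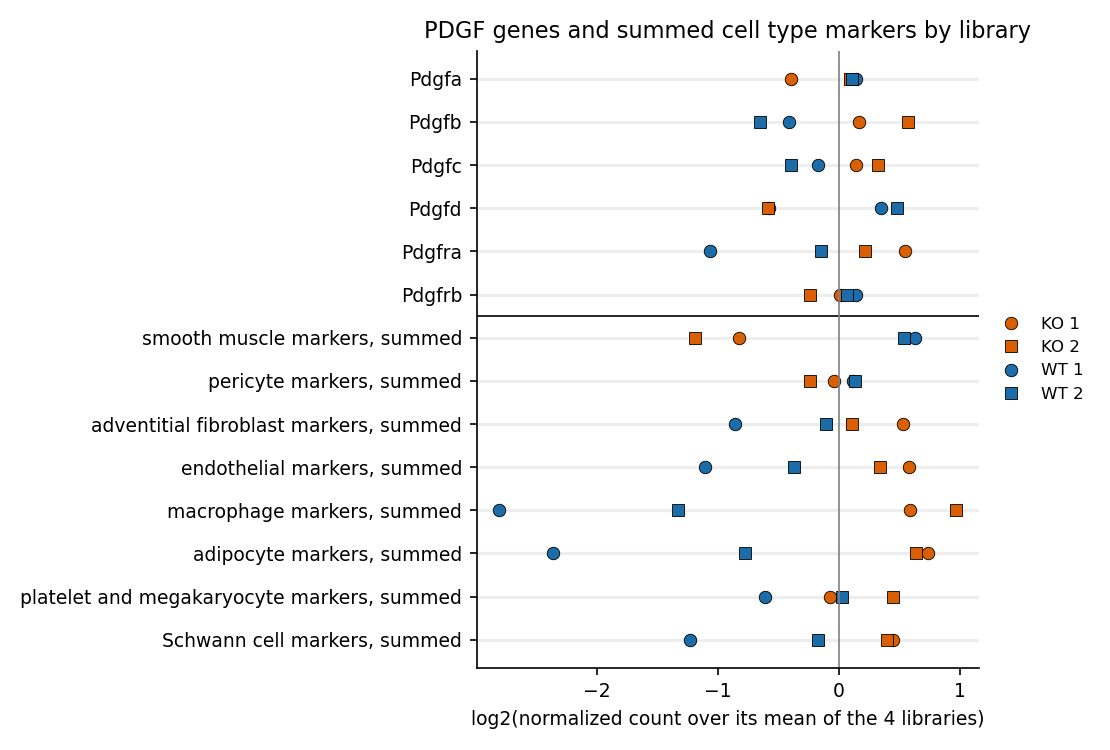
Log2 of each library's value over the mean of the 4 libraries, for the 6 PDGF genes (upper rows) and for the summed counts of 8 lists of cell type markers (lower rows). WT replicate 1 (blue circles) lies lowest for Pdgfra (-1.07) and for the fibroblast (-0.86), endothelial (-1.11), macrophage (-2.81) and adipocyte (-2.37) sums.

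Around the receptors, 5 lists of genes were read from the same test, and over all tested genes the median log2 fold change was -0.02. The share of all tested genes called was 9.58% higher and 6.7% lower, and 2699 of 15058 were higher and 2199 lower at an unadjusted p under 0.05. Each count below is to be read against these shares. Among 10 tested genes of ligand processing and extracellular partners, 2 rose and 0 fell by limma (4 higher and 0 lower at an unadjusted p under 0.05), with a median of 0.57. Nrp1, a co-receptor that binds PDGFs and VEGFs, had 5401 and 4946 normalized read counts in KO and 1868 and 2583 in WT (log2 fold change 1.23, SE 0.17, limma adjusted p = 0.0116). The groups were well apart. Lrp1, an endocytic receptor that partners PDGFRβ, was at 61788 and 54462 in KO and 37967 and 40622 in WT (0.56, SE 0.14, adjusted p = 0.0444). Pdgfrl, a receptor-like gene, had a log2 fold change of 0.86 (adjusted p = 0.0721) and Plau, whose product urokinase activates PDGF-D, one of 0.96 (adjusted p = 0.086). St14, Plg and A2m were below the filter. Beside these stand the endothelial sum of 11688 and 9867 in KO and 3600 and 6028 in WT, and the fibroblast sum given above.

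The adaptors, kinases and transcription factors that relay the signal showed no common direction: of 36, 5 rose, 2 fell and 29 did not pass (8 higher and 7 lower at an unadjusted p under 0.05), and the median was -0.04. These counts are near the shares over all tested genes (9.58% higher and 6.7% lower). Gab2, a docking adaptor, had 3017 and 2824 in KO and 1666 and 1699 in WT (log2 fold change 0.79, SE 0.10, limma adjusted p = 0.0102). Stat3 had 3010 and 3249 in KO and 1716 and 1831 in WT (0.82, SE 0.10). Pik3cd, the PI3-kinase catalytic subunit of leukocytes, had 335 and 553 in KO and 128 and 152 in WT (1.62, SE 0.27), and the macrophage sum was 13422 and 17514 in KO against 1276 and 3557 in WT. The kinase gene Braf, named after its values were seen, fell, with 2306 and 2153 in KO and 3001 and 3115 in WT (-0.46, SE 0.10, adjusted p = 0.0324). The core of the pathway was close between groups: Grb2 had 577 and 636 in KO and 576 and 568 in WT, Akt1 1546 and 1700 in KO and 1655 and 1611 in WT, and Pik3r1 5533 and 4884 in KO and 5311 and 5037 in WT, genes picked here for their small differences.

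Genes that damp receptor signals were higher where they passed: of 19, 6 rose and 0 fell by limma (10 higher and 0 lower at an unadjusted p under 0.05), with a median of 0.49. Socs3, a feedback inhibitor of cytokine signals, led with 469 and 826 in KO and 59 and 79 in WT (log2 fold change 3.17, SE 0.31, limma adjusted p = 0.00789). The tyrosine phosphatase gene Ptpn12 stood at 0.81 (SE 0.14). Of the inhibitors of the Ras and ERK route in the list, Dusp4 at 1.86 (SE 0.39), Spry1 at 0.78 (SE 0.18), Spry4 at 0.99 (SE 0.23) and Dusp6 at 0.89 (SE 0.22) rose. Others did not pass, namely Dusp5 (1.46, adjusted p = 0.0559), Spred1 (0.53, adjusted p = 0.0504), Spred2 (0.14), Rasa1 (0.09) and Spry2 (0.05). Dusp6, the ERK phosphatase, was at 401 and 589 in KO and 281 and 244 in WT. The ubiquitin ligase genes Cbl (0.23) and Cblb (0.09) did not pass. After rescaling to the same total, 10 of the list rose. Macrophage and endothelial markers were higher in the same libraries (11 of 11 and 5 of 10).

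Of 16 genes known to be induced by PDGF in cultured mesenchymal cells, 6 rose and 0 fell by limma (8 higher and 0 lower at an unadjusted p under 0.05), with a median of 1.22. Many other signals induce the same genes. Junb had 424 and 776 in KO and 137 and 124 in WT (log2 fold change 2.13, SE 0.29, limma adjusted p = 0.0119). Klf4, a factor of smooth muscle phenotype change, had 1406 and 1330 in KO and 340 and 605 in WT (1.59, SE 0.26). Ccnd1, which encodes cyclin D1, was at 667 and 839 in KO and 129 and 277 in WT (1.98, SE 0.36). The immediate early gene Ier2 was at 141 and 208 in KO and 78 and 70 in WT (1.20, SE 0.27). The chemokine genes Ccl2 (53 and 173 in KO, 0 and 5 in WT) and Cxcl1 (48 and 448 in KO, 0 and 7 in WT) varied several-fold between the KO libraries. Egr1 (0.43), Fos (0.85) and Myc (1.64) did not pass. The macrophage sum, 13422 and 17514 in KO and 1276 and 3557 in WT, moved in the same direction.

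Among 15 relatives of the PDGF receptors and ligands, 7 rose and 0 fell by limma (10 higher and 0 lower at an unadjusted p under 0.05), with a median of 0.95. Flt1, a VEGF receptor gene, had 1751 and 1929 in KO and 927 and 972 in WT (log2 fold change 0.95, SE 0.11, limma adjusted p = 0.00899). Figf, the older name of the VEGF-D gene, was at 1656 and 1800 in KO and 622 and 904 in WT (1.20, SE 0.19). Pdgfra shares its stretch of chromosome 5 with the receptor genes Kit, 377 kb away, and Kdr, 276 kb beyond Kit. Kit, the stem cell factor receptor gene, had 628 and 505 in KO and 176 and 259 in WT (1.39, SE 0.23, adjusted p = 0.0168). Kdr, also an endothelial marker, had 852 and 895 in KO and 161 and 364 in WT (1.85, SE 0.36, adjusted p = 0.0249). Csf1r, the macrophage receptor gene that lies 15.5 kb from Pdgfrb, had 1287 and 1800 in KO and 191 and 512 in WT (2.28, SE 0.45), beside the small difference of Pdgfrb. The endothelial sum was 11688 and 9867 in KO against 3600 and 6028 in WT.

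The calls in these lists depended on which libraries were kept. Without KO replicate 1, KO replicate 2 or WT replicate 1 none was left, because limma then called 0 genes in all. Without WT replicate 2 it called 2 genes higher in ligand processing, 0 among the transducers, 1 among the attenuators, 2 among the inducible genes and 5 among the relatives, and 0 lower.

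**Figure D5:**
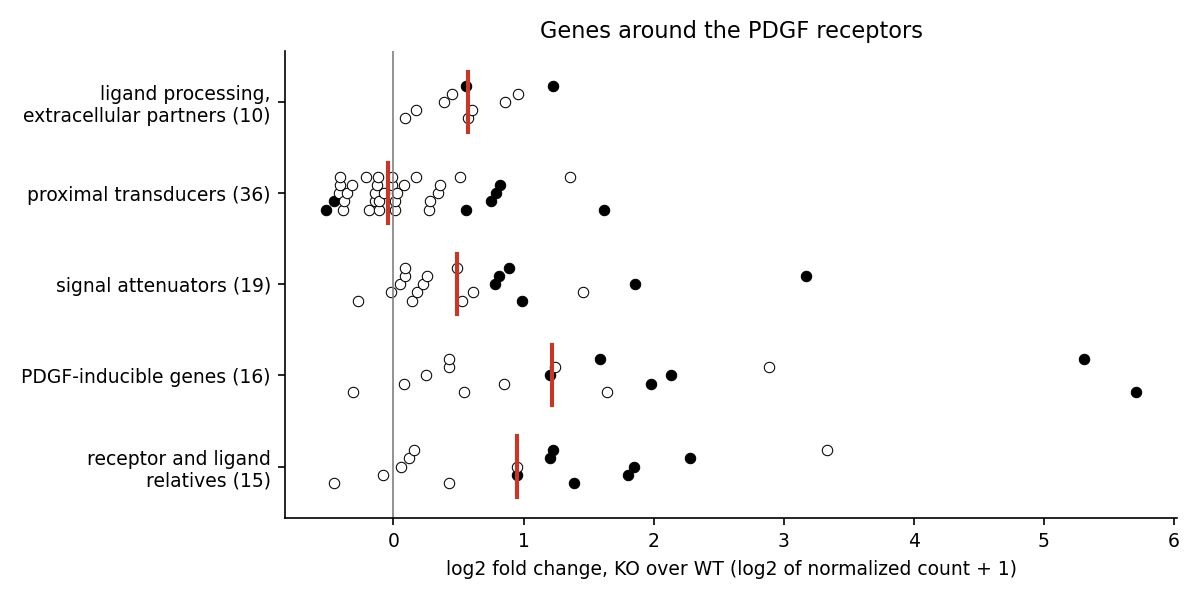
Log2 fold changes, KO over WT, of the tested genes in 5 lists around the PDGF receptors, with the number tested in brackets. Each circle is a gene, filled where the limma adjusted p was under 0.05, and red lines are list medians, from -0.04 for the transducers to 1.22 for the PDGF-inducible genes.

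The genes whose profile over the 4 libraries was most like that of each PDGF gene were found by the Euclidean distance between centred log2 values, among 11624 genes with a mean of at least 50. With 4 libraries, such likeness is a description only. Pdgfb was nearest to Pfkfb3, a regulator of glycolysis (distance 0.108), and to Dusp6 (0.113), and 17 genes lay within a distance of 0.2. Pdgfra was nearest to S100a13 (97 and 76 counts in KO, 32 and 63 in WT, distance 0.083) and to Plscr4 (748 and 629 in KO, 261 and 466 in WT, distance 0.088), with 23 genes within 0.2. For Pdgfd they were Cep41 (distance 0.055) and Pddc1 (0.056), with 65 genes within 0.2. Pdgfc was nearest to Zfp36l2 (0.046) and Zbtb7b (0.050), and Pdgfa to Celf3 (0.039) and Rab24 (0.045). Pdgfrb, with its small differences, had Emp2 and Zxdc as neighbours (distance 0.022 each) and 1244 genes within 0.2.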

How the data were processed

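Total RNA depleted of ribosomal RNA was made into stranded libraries, per the labels' protocols. FastQC, STAR 2.5.2b, featureCounts 1.5.1 (Subread), DESeq2 1.14.1 and build mm10/GRCm38 appear, without roles, in the submitters' processing notes; for annotation, strand setting and filters, the entry is "not given in the sources used here". The deposited table holds 1 score per gene and library, the authors' normalized read count rounded to whole numbers. Whole numbers recur at a spacing set by division by a size factor, from which factors of 0.887 and 0.89 (KO) and 1.1 and 1.16 (WT) and the depth were estimated. Rounding blurs the WT reads, so no count model was used.

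Values were tested as log2(value + 1) with limma 3.58.1 (R 4.3.3): genes with a mean of at least 10, group as the only term, eBayes with an intensity trend, Benjamini-Hochberg adjustment over 15058 genes, threshold 0.05. Log2 fold changes carry the pseudocount, so low genes change by more than they show, while multiples such as 1.87-fold and percent differences compare group means of counts. Ratios between genes were compared by exact permutation (SciPy 1.17.1). The test was tried on simulated data. Alternatives covered the pseudocount, filter, trend, scaling, replicate block and each library left out. Exon lengths come from GENCODE M21 on GRCm38, promoters from RefSeq.

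The members and lists were chosen with earlier results of these data known. Named genes are the PDGF genes, Yap1, Wwtr1, up to 4 genes of smallest p per pathway list (all called genes where at most 6 passed), 2 nearest profiles per PDGF gene, and the most abundant gene of a marker list. Genes named outside that rule were chosen after their values were seen, and some genes that the rule names are not reported here.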

Additional observations from a re-analysis of the deposited data

How the results depend on the processing

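With 2 libraries a group, the calls turned on single settings more than the sizes did. No log2 fold change of a PDGF gene changed sign in 13 alternatives. Pdgfa and Pdgfrb never passed. With no filter on low values and with no intensity trend, limma called 0 genes higher and 0 lower in all and in every list (5472 and 4274 at an unadjusted p under 0.05), so Pdgfd (-1.00 in both) and Pdgfb (0.89 in both) lost their calls at unchanged size. Pdgfb also lost it after quantile normalization (0.76). Past the threshold came Pdgfra after quantile normalization (1.10) and at the same total (1.08), and Pdgfc at the same total (0.60). The attenuators called higher numbered 10 at the same total, and the transducers called lower 4 among genes with a mean of at least 50. The cause of these shifts was not tested.

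With the replicate number as a block, Pdgfb stood at 0.89 without a call (adjusted p = 0.0505), 4 ligand processing genes rose, and 1823 genes were called higher and 1213 lower over all. The libraries share only a number: the labels name no shared batch or day, and the deviations of same-numbered libraries correlated at 0.118 over genes.

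With 1 library left out, the lone library of a group is assumed to vary like the other group. The log2 fold changes ran from -0.52 to -0.03 for Pdgfa, 0.69 to 1.09 for Pdgfb, 0.40 to 0.63 for Pdgfc, -1.06 to -0.94 for Pdgfd, 0.54 to 1.46 for Pdgfra and -0.34 to -0.09 for Pdgfrb. Genes called ran from 0 to 587 higher and 0 to 153 lower over all. In the lists, those called higher ran from 0 to 2 (ligand processing), 0 to 0 (transducers), 0 to 1 (attenuators), 0 to 2 (inducible genes) and 0 to 5 (relatives), and 0 were called lower. The differences in log2 ratio ran from 0.72 to 1.71 for Pdgfra over Pdgfrb, -1.27 to -1.06 for Pdgfa over Pdgfb, 1.34 to 1.69 for Pdgfc over Pdgfd and 0.28 to 0.65 for Pdgfrb over the ligands. Depth limits Pdgfb most, at an estimated 122 to 217 reads a library.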
